A study of Mus musculus with 6 samples.

Results

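The interferon regulatory factors are a family of transcription factors that share a DNA-binding domain and bind GAAA-containing elements. The genes described here are Irf1, Irf2, Irf3, Irf4, Irf5, Irf7, Irf8 and Irf9, taken as the 8 rows of the 55487 in the deposited count table whose Ensembl identifiers, without version, carry these symbols in GENCODE M21. The cells were RAW264.7, an established mouse macrophage line. All 6 samples were labelled as treated with RANKL and M-CSF, the cytokines under which macrophage precursors can become osteoclasts. The control group held 3 samples of genotype wt, and the other group held 3 samples labelled RhoA knockout and titled SMART-Cas9, the name the design text gives to the knockout strategy. The design text calls the control line untreated, whereas its labels give RANKL and M-CSF. Whether the samples of a group came from separate cultures, and whether the edited cells were a pool or 1 clone, is not given in the sources used here, so p-values measure the spread between these samples only, which may be technical.

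Viral nucleic acid sensors and Toll-like receptors activate kinases that phosphorylate IRF3, IRF5 and IRF7, which then induce interferon genes. Secreted interferon binds its receptor, and IRF9 acts with STAT2 in the complex ISGF3, which switches on interferon-stimulated genes through interferon-stimulated response elements. IRF1 activates and IRF2 mostly opposes an overlapping set of genes, and IRF4 and IRF8 bind composite elements together with PU.1 or AP-1 partners. IRF8 is known for directing monocyte and macrophage development and for restraining osteoclast formation.

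The libraries held 60198645 to 79918899 counts in the control group and 71777994 to 81830819 in the group labelled RhoA knockout. The 10 most counted genes took 62.0% to 63.2% of control counts and 44.1% to 47.8% of the others. Replicate 3 stood apart in both groups, with a chi-square per degree of freedom against its own group of 80.9 to 100.9, beside 20.7 for controls 1 and 2 and 26.2 for knockout libraries 1 and 2. The targeted gene, Rhoa, stood at 21.4, 25.8 and 24.4 CPM (the count relative to the TMM-scaled library total) in the controls and higher, at 34.2, 29.9 and 31.5, in the others (log2 fold change 0.41 ± 0.12 SE, edgeR adjusted p = 0.0136). That call was lost without control 1 (adjusted p = 0.0645) and without knockout library 1 (adjusted p = 0.0741). Counts over a whole gene do not read a Cas9 cut site, so these values do not test the edit in the DNA, and every direction below is between libraries as labelled. Of 9 macrophage markers, Cd68, Csf1r and Lyz2 were above every control in the knockout-labelled libraries, with Cd68 at 1291 to 1460 CPM in controls and 3025 to 3830 in the others. Another 4 were below every control: Itgam (26.1 to 30.0 CPM against 5.63 to 7.80), Fcgr1 (42.8 to 44.9 against 9.65 to 13.0), Cd14 (793 to 799 against 515 to 562) and Adgre1 (13.2 to 15.0 against 7.30 to 11.5). Mrc1 and Mertk were under 1 CPM throughout. Of all genes tested, 27.5% had every knockout-labelled library above every control and 28.3% had every one below. Markers of T and NK cells were at 0 for 6 of 6 genes, and 5 of 7 B cell markers were at 0, whereas the B cell list's Ighm ran from 13.2 to 17.4 CPM in controls and from 28.6 to 32.0 in the others. The summed level of the 9 macrophage markers ran from 18172 to 20026 CPM in controls and from 81082 to 113692 in the others, mostly from Lyz2. The mitochondrial transcript mt-Nd1 ran from 559 to 722 CPM in controls and from 12220 to 13406 in the others, while mt-Co1 ran from 40035 to 44765 and from 16150 to 17745. The part of these shifts in the results below was not tested. In bulk RNA, fewer cells of a kind and less RNA per cell cannot be told apart.

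The sequences before the start sites of 3 members are shown because Irf7 and Irf8 had the largest differences between the groups, and Irf1 carries a textbook gamma-activated element. They come from RefSeq on GRCm38.p6. Capitals mark matches to TTCNNNGAA, the letters of a gamma-activated sequence, and positions count back from the annotated start, with the base before it as −1. The Irf8 stretch is chr8:120736108-120736357, plus strand. The Irf7 stretch is chr7:141266482-141266674, minus strand, the 193 bases of the window outside annotated GENCODE exons. The Irf1 stretch is chr11:53769764-53770013, plus strand.
Irf8: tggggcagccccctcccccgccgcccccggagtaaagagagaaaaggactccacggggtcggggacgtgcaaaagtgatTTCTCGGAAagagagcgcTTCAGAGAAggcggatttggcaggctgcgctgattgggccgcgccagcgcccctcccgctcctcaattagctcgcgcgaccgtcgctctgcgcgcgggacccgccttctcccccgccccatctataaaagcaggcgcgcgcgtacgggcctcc
Irf7: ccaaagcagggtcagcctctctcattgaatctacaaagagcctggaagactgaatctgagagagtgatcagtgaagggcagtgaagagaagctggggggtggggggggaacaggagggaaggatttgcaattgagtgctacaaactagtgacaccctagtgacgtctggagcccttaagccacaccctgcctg
Irf1: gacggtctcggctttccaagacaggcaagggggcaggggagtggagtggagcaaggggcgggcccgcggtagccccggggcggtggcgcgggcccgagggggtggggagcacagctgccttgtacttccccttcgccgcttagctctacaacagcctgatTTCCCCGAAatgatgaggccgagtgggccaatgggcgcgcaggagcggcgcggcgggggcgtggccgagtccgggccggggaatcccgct

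Irf8 held 2 such matches, TTCTCGGAA starting at −171 and TTCAGAGAA starting at −153, and Irf1 held 1, TTCCCCGAA starting at −90. Irf2 held 1 gamma-activated match, at −224, and was the only member with a match to the IRF motif GAAANNGAA, at −241, and to the composite ETS and IRF motif GGAANNGAA, at −247. The last 2 matches overlap. No match to the 3 motifs, searched on both strands of the 300-base RefSeq windows (250 bases before and 50 after a start), was found for Irf3, Irf4, Irf5, Irf7 or Irf9. Over all 32851 windows, 8.56% held GAAANNGAA, 8.3% held TTCNNNGAA and 8.24% held GGAANNGAA. A match describes letters, not binding.

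Of the 8 members, 7 passed the filter on low counts and were tested. Irf7, Irf8 and Irf9 fell and Irf3 rose in the libraries labelled RhoA knockout, whereas Irf1, Irf2 and Irf5 did not pass the test. That is 3 of 7 lower, beside 22.3% of all 12930 genes tested, and 1 of 7 higher, beside 21%. With 43.2% of all genes called in either direction, these counts are near the background, and the size of the Irf7 and Irf8 differences is what sets them apart from the other members.

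**Figure D1:**
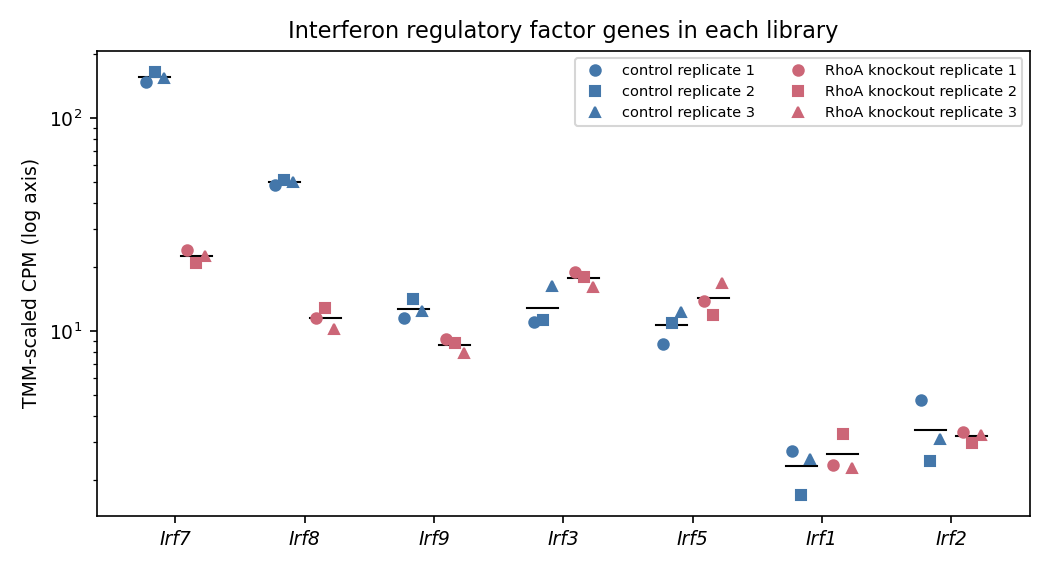
Each point is 1 library, as TMM-scaled CPM on a log axis; blue points are controls, red points are libraries labelled RhoA knockout, the marker shape gives the replicate number and black lines are group means (n = 3). Irf7, Irf8 and Irf9 do not overlap between the groups, with the knockout-labelled side below, and the other 4 genes do overlap. Of all genes tested, 28.3% do not overlap with that side below and 27.5% with it above. Irf4 is left out because 3 of its 6 counts are 0.

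Irf7, on chromosome 7 (141262706 to 141266481, minus strand; ENSMUSG00000025498.15), is the factor that amplifies interferon alpha production and is itself strongly induced by interferon. Its level was 147, 165 and 154 CPM in the controls and 24.1, 20.9 and 22.6 CPM in the knockout-labelled libraries. The lowest control thus stood well above the highest of the others. The fold was 6.88 lower (log2 fold change −2.78 ± 0.11 SE, edgeR quasi-likelihood test, adjusted p = 7.73e-09), from 9050 to 11340 counts per control library and 1716 to 1980 in the others. Its exons share 45 bases with Phrf1 on the opposite strand, whose count was at most 31.3% of that of Irf7. Whether the counting used strand is not given in the sources used here.

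Irf8, on chromosome 8 (120736358 to 120756694, plus strand; ENSMUSG00000041515.10), encodes the myeloid lineage factor. Control libraries stood at 48.4, 51.2 and 49.9 CPM and the knockout-labelled libraries at 11.5, 12.8 and 10.2. Both groups were tight and far apart. The gene was 4.34-fold lower (log2 fold change −2.12 ± 0.12 SE, edgeR adjusted p = 1.17e-07). Irf8 lost less than Irf7 on the log2 scale, although that difference between genes was not tested.

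Irf9, on chromosome 14 (55603571 to 55610030, plus strand; ENSMUSG00000002325.15), encodes the DNA-contacting subunit of ISGF3. It was at 11.5, 14.1 and 12.4 CPM in controls and at 9.18, 8.77 and 7.86 in the others. The groups did not overlap, and neither did they in 28.3% of all tested genes with the knockout-labelled side below, or in 27.5% with it above. The fold was 1.47 lower (log2 fold change −0.55 ± 0.15 SE, edgeR adjusted p = 0.0101). Scaled by library totals alone, it was −0.37 (adjusted p = 0.156), a scaling that moves the median of all genes by 0.175, and relative to that median the values were −0.53 and −0.52. Irf9 shares 123 exonic bases with Rnf31 on the same strand, whose count was up to 64.3% of that of Irf9.

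Irf3, on chromosome 7 (44997648 to 45002848, plus strand; ENSMUSG00000003184.15), encodes the constitutively present factor activated by TBK1. Controls stood at 10.99, 11.2 and 16.3 CPM and the others at 19.0, 18.0 and 16.04. Control 3 lay above knockout library 3, so the groups overlapped. The log2 fold change was 0.46 ± 0.17 SE (edgeR adjusted p = 0.0412). That call was lost without control 1 (adjusted p = 0.156), control 2 (0.167), knockout library 1 (0.15) or knockout library 2 (0.12), and it rose to 0.74 (adjusted p = 0.00328) without replicate 3 of both groups. It was also lost with the gene length correction (0.39, adjusted p = 0.0872).

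Irf5, on chromosome 6 (29526625 to 29541871, plus strand; ENSMUSG00000029771.12), encodes the factor that acts downstream of MyD88 in inflammatory macrophages. Its controls stood at 8.68, 10.9 and 12.3 CPM and the others at 13.9, 11.9 and 16.9. Knockout library 2 fell within the control range. The log2 fold change of 0.42 ± 0.18 SE did not pass the test (edgeR adjusted p = 0.0737), but it passed without control 3 (0.54, adjusted p = 0.0404). Irf5 shares 411 exonic bases with Tnpo3 on the opposite strand, whose count was up to 107% of that of Irf5.

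Irf1, the interferon gamma-induced activator, was at 2.72, 1.71 and 2.51 CPM in controls and 2.35, 3.30 and 2.27 in the others (log2 fold change 0.19 ± 0.30 SE, edgeR adjusted p = 0.644). Irf2, its known antagonist, was at 4.73, 2.46 and 3.12 against 3.38, 2.99 and 3.25 CPM (−0.10 ± 0.28 SE, edgeR adjusted p = 0.792). Both groups overlapped for each gene, and the standard errors allow changes in either direction. Irf1 lies on chromosome 11 (53770014 to 53778374) and Irf2 on chromosome 8 (46739732 to 46847458), both on the plus strand. Exons of Irf1 share 135 bases with Gm17334 on the opposite strand. The Gm17334 count was at most 16.6% of that of Irf1, in knockout library 2, where Irf1 was highest. Irf4, the factor of alternative activation on chromosome 13 (30749226 to 30766976), had 0, 17 and 0 counts in controls and 4, 40 and 0 in the others, and was not tested.

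**Figure D2:**
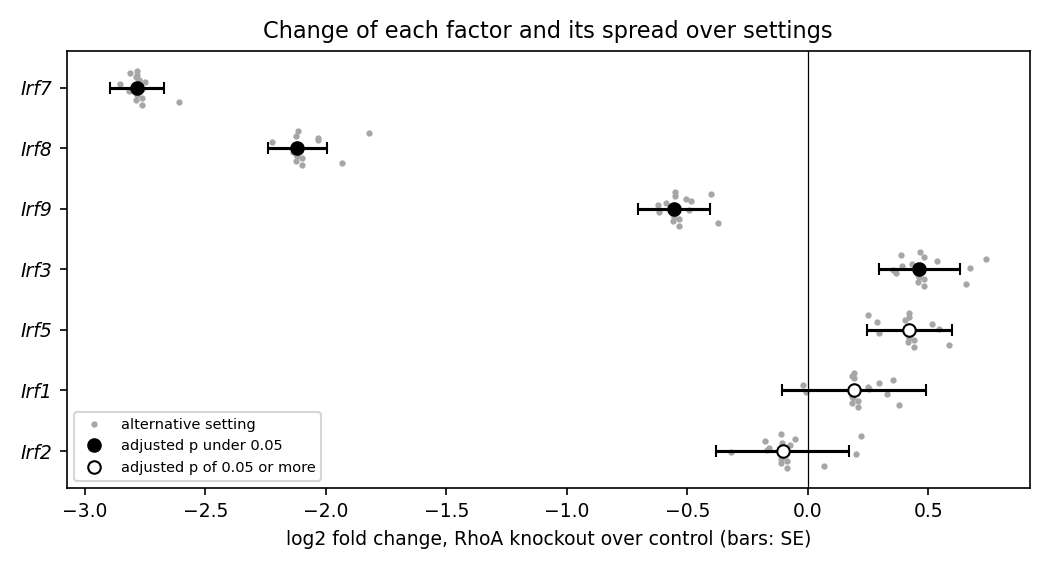
Black circles are the log2 fold changes of the 7 tested members, knockout-labelled over control, with SE bars; filled circles passed an adjusted p of 0.05 and grey dots are the 16 alternative settings. Irf7 (−2.85 to −2.61) and Irf8 (−2.22 to −1.82) lie far below 0 in each setting, whereas Irf1 and Irf2 have dots on both sides of 0.

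Compared per length, as CPM per kilobase of annotated exon, the order of the members differed between the groups. Among controls Irf7 led at 41.1 ± 2.35 (SD, n = 3), followed by Irf8 at 7.06 ± 0.197, Irf3 at 3.73 ± 0.866, Irf5 at 3.66 ± 0.630, Irf9 at 2.35 ± 0.245, Irf1 at 0.582 ± 0.134, Irf2 at 0.465 ± 0.158 and Irf4 at 0.0197 ± 0.0342. The ranges of Irf3 and Irf5, and of Irf1 and Irf2, overlapped, and no other neighbouring pair did. In the knockout-labelled libraries Irf7 was at 5.96 ± 0.431, Irf3 at 5.14 ± 0.440, Irf5 at 4.90 ± 0.857, Irf8 at 1.63 ± 0.184, Irf9 at 1.60 ± 0.125, Irf1 at 0.665 ± 0.144, Irf2 at 0.433 ± 0.0268 and Irf4 at 0.0337 ± 0.0501. There the overlapping neighbours were Irf3 with Irf5 and Irf8 with Irf9. Irf8, next after Irf7 in the controls, stood below Irf3 and Irf5 in the others.

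The summed level of the 8 members was 55.4, 61.3 and 60.1 CPM per kilobase in controls and 21.1, 19.6 and 20.4 in the others. Irf7 made up 70.2%, 71.1% and 67.7% of that sum in controls and 30.3%, 28.2% and 29.4% in the others. Without Irf7 the sum was 17.9 ± 1.45 against 14.4 ± 0.298 (SD, n = 3). The lead of Irf7 in the knockout-labelled libraries depended on the length used: over the longest transcript, Irf3 was at 8.70 ± 0.745 and Irf7 at 6.95 ± 0.502. No other member changed rank.

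**Figure D3:**
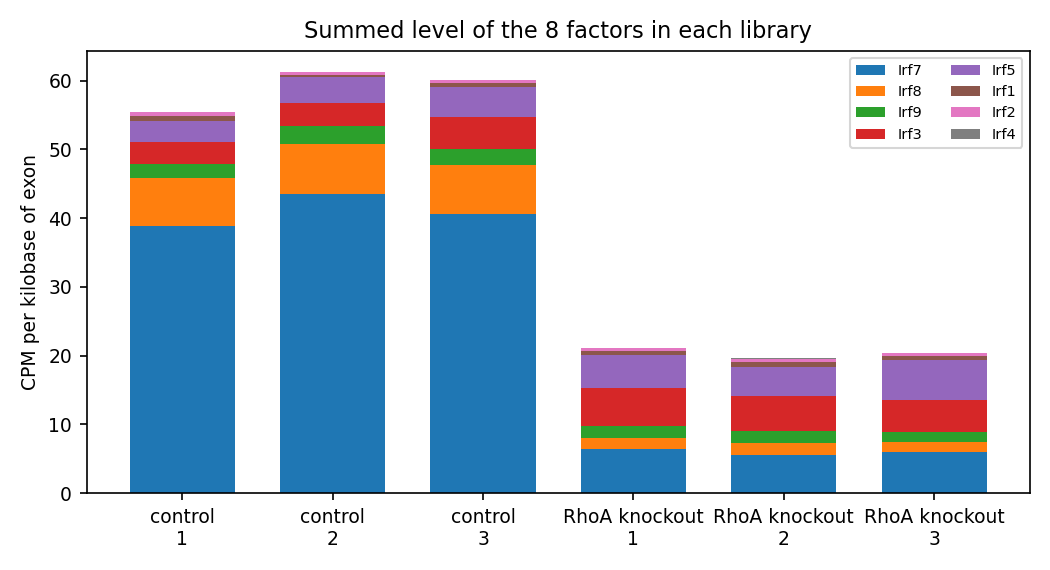
Stacked bars give the CPM per kilobase of exon of the 8 members in each library, with 1 colour per gene. The bars stand at 55.4 to 61.3 in the 3 controls and 19.6 to 21.1 in the 3 libraries labelled RhoA knockout, and the Irf7 portion accounts for most of the gap.

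Count ratios within a library do not depend on its scaling. There were 13.4, 14.6 and 9.44 Irf7 counts per Irf3 count in controls and 1.27, 1.16 and 1.41 in the others. The inducible and the constitutive factor were thus counted at similar numbers in the knockout-labelled libraries. Irf9 counts per count of its partner Stat2 went the other way, from 0.704, 0.840 and 0.830 to 4.80, 3.96 and 5.59. The mean log2 difference was −3.27 for Irf7 to Irf3 and 2.59 for Irf9 to Stat2. Each has a 2-sided exact permutation p of 0.1, the smallest that 3 against 3 libraries allow, and 0.2 after Benjamini-Hochberg adjustment over the 4 ratios computed. Irf1 per Irf2 count was 0.575, 0.694 and 0.804 against 0.697, 1.10 and 0.7004 (exact permutation p = 0.4). The Irf4 to Irf8 ratio is undefined where Irf4 is 0, so it entered the adjustment with 0.5 added to each count. Its log2 difference was then 3.23, with overlapping groups (exact permutation p = 0.3, adjusted p = 0.4), and it rests on Irf4 counts at or near 0.

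Upstream of the members, 7 of 25 tested genes for sensors, adaptors and kinases fell, beside 22.3% of all genes, and 1 rose, beside 21%, with a median log2 fold change of −0.01 beside −0.03 for all genes. The lowered genes included the cytosolic RNA sensors Ddx58 (RIG-I) and Ifih1 (MDA5). Ddx58 went from 1543, 1414 and 1187 counts to 359, 268 and 300 (log2 fold change −2.51 ± 0.18 SE, edgeR adjusted p = 5.37e-07), and Ifih1 changed by −2.15 ± 0.20 (adjusted p = 3.77e-06). Dhx58 (LGP2), a regulator of both, changed by −2.14 ± 0.17, and Lyn, a tyrosine kinase known to restrain IRF5, by −1.36 ± 0.11. The remaining lowered genes, named with values in view, included an adaptor and a kinase. They were the adaptor Ticam1 (−1.26 ± 0.31, edgeR adjusted p = 0.00607), the kinase Ikbke (−0.49 ± 0.14, 0.0133) and Slc15a4 (−0.51 ± 0.17, 0.0272). Over the alternative settings 5 to 9 of the listed genes fell. The 1 gene that rose was Tlr4, the receptor for lipopolysaccharide (1.04 ± 0.26, edgeR adjusted p = 0.00631), named after its value was seen. The kinase Tbk1 (−0.33 ± 0.21), the adaptors Mavs (0.11 ± 0.16) and Myd88 (0.21 ± 0.17) and the chaperone Unc93b1 (0.04 ± 0.11), also picked with values in view, did not pass the test. Myd88 shares 224 bases of near-identical sequence with the more counted Acaa1a, so its count is uncertain.

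Of the 9 interferon receptor, Janus kinase and STAT genes, 6 fell, beside 22.3% of all genes, and 3 rose, beside 21% (median −0.61). With the gene length correction, 3 of the 9 were lower. Stat2, the ISGF3 subunit that carries the transactivation domain, went from 1258, 981 and 878 counts to 157, 198 and 107 (log2 fold change −3.11 ± 0.20 SE, edgeR adjusted p = 2.45e-07). Jak2, which serves the interferon gamma receptor, changed by −2.51 ± 0.28. The 3 genes that rose were receptor chains: Ifngr1 (1.90 ± 0.13, adjusted p = 4.28e-07), Ifngr2 (0.85 ± 0.15) and Ifnar2 (0.61 ± 0.13). The other type I chain, Ifnar1, changed by −0.58 ± 0.18 (edgeR adjusted p = 0.023), a call lost without control 1 (0.104), knockout library 2 (0.0576) or knockout library 3 (0.0731), with library totals (0.195) and with the length correction (0.115).

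Among 11 tested inhibitors of this signalling, 5 fell, beside 22.3% of all genes, and 3 rose, beside 21% (median −0.17). Over the alternative settings the median had no stable sign, from −0.51 to 0.02. Usp18, the protease that removes ISG15 and blocks the type I receptor, was at 325 ± 21.05 CPM in controls and 71.5 ± 6.23 in the others (SD, n = 3; log2 fold change −2.18 ± 0.11 SE, edgeR adjusted p = 5.27e-08). Trim30a changed by −2.56 ± 0.18 and Socs3, a cytokine signalling suppressor, by −3.95 ± 0.65. Of the IRF2-binding protein genes, Irf2bpl fell (−1.73 ± 0.23, edgeR adjusted p = 9.05e-05), whereas Irf2bp1 (0.19 ± 0.34) and Irf2bp2 (−0.15 ± 0.29) did not pass.

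Interferon genes themselves were hardly counted. None of 12 passed the filter, and 8 had 0 counts in all 6 libraries. Ifnb1 had 20, 18 and 0 counts in controls and 0 in each of the others, where 3 counts would stand for 0.0336 to 0.0394 CPM. Ifna4 had 9 counts in control 2 and 0 elsewhere. With no filter, Ifnb1 did not pass the test over all 6 libraries (edgeR adjusted p = 0.061). The filter passed Ifnb1 when some libraries were left out, through its control counts alone. It was not called without knockout library 1, 2 or 3 (edgeR adjusted p 0.0912 to 0.0994). It was called only without control 3 (0.0277) or replicate 3 of both groups (0.028). Both leave out the control at 0 counts, so the choice of library sets these calls and they do not show a difference. For the other 11 genes, 9 counts or fewer per library do not show a difference at this depth.

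The genes induced through ISGF3 and IRF sites were lower almost throughout: 24 of 25 fell, beside 22.3% of all genes. None rose, beside 21%, and the median log2 fold change was −2.49 beside −0.03 for all genes. This list of genes, like the others, was chosen with earlier results of these data known. By an unadjusted p of 0.05, the count of these genes with a higher value was also 0, and DESeq2 gave 24 lower and 0 higher. Rsad2 (viperin) went from 4921, 3140 and 4668 counts to 104, 111 and 96 (−5.70 ± 0.18 SE, edgeR adjusted p = 1.31e-09). Xaf1 changed by −3.57 ± 0.16, Isg20, a nuclease against viral RNA, by −3.69 ± 0.17, and Ifit2 by −4.39 ± 0.21. The exception was Ifi35, at 119 ± 2.99 and 112 ± 11.8 CPM (SD, n = 3; −0.08 ± 0.11, edgeR adjusted p = 0.587), and it was −0.43 (adjusted p = 0.00357) with the length correction. Ifit3 with Ifit3b, Oas1a, Mx2 and Herc6 share near-identical sequence with other genes, so their single counts are uncertain.

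Of the 19 such genes with a RefSeq window, 11 held GAAANNGAA, beside 9.76% of all 27025 genes. Elsewhere, 8 of 16 known IRF1 targets with a window held it, as did 1 of 9 IRF8-linked genes, Cybb, which rose. The stretches around a match in 5 genes described here are given only to show the element. All 5 fell, and only Rsad2 is among the ISGF3 and IRF targets counted above. The matching letters are in capitals, read on the strand of the gene, and in all but Cxcl10 the match is on the opposite strand. Rsad2 is chr12:26456547-26456587, Stat2 chr10:128270261-128270301, Ifih1 chr2:62646343-62646383, Trim30a chr7:104465204-104465244 and Cxcl10 chr5:92349078-92349118, from RefSeq on GRCm38.p6. Stat2 is on the plus strand and the other 4 on the minus strand.
Rsad2: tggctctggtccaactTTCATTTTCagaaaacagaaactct
Stat2: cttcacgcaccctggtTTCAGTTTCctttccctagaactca
Ifih1: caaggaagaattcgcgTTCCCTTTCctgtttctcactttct
Trim30a: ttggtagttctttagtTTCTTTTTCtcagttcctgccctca
Cxcl10: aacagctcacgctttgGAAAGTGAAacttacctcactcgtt

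Of 18 tested IRF1 targets known from other work, 10 fell, beside 22.3% of all genes, and 2 rose, beside 21%. Irf1 itself did not pass the test. The median was −1.21, also with Nos2 and Gbp5 at the bounds their 0 counts allow. Over the alternative settings the lower count ran from 8 to 13 and the median from −1.74 to −0.71. Cxcl10, a chemokine for activated T cells, went from 2603, 2063 and 1356 counts to 71, 143 and 102 (−4.59 ± 0.25 SE, edgeR adjusted p = 6.35e-08). Nos2, the inducible nitric oxide synthase, had 409, 300 and 323 counts in controls and 0 in each of the others, at least 145-fold lower against a floor of 3 counts per library. Cd274 (PD-L1) changed by −4.50 ± 0.37 and the peptide transporter Tap1 by −1.96 ± 0.15. The 2 that rose were immunoproteasome genes. Psmb8 went from 98.7 ± 1.82 to 204 ± 28.1 CPM (SD, n = 3; 1.05 ± 0.12, edgeR adjusted p = 1.7e-05) and Psmb9 changed by 0.53 ± 0.20 (adjusted p = 0.0468). The Psmb9 call was lost in 10 of 16 alternatives, among them each single library left out (adjusted p 0.058 to 0.149) and the replicate block (0.068). The other immunoproteasome gene, Psmb10, was at −0.22 ± 0.13 (edgeR adjusted p = 0.194), and at −0.57 (adjusted p = 0.00188) with the length correction. B2m was at 1187 ± 27.8 and 1177 ± 207 CPM (−0.01 ± 0.14), and at −0.34 (edgeR adjusted p = 0.0361) with the length correction.

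**Figure D4:**
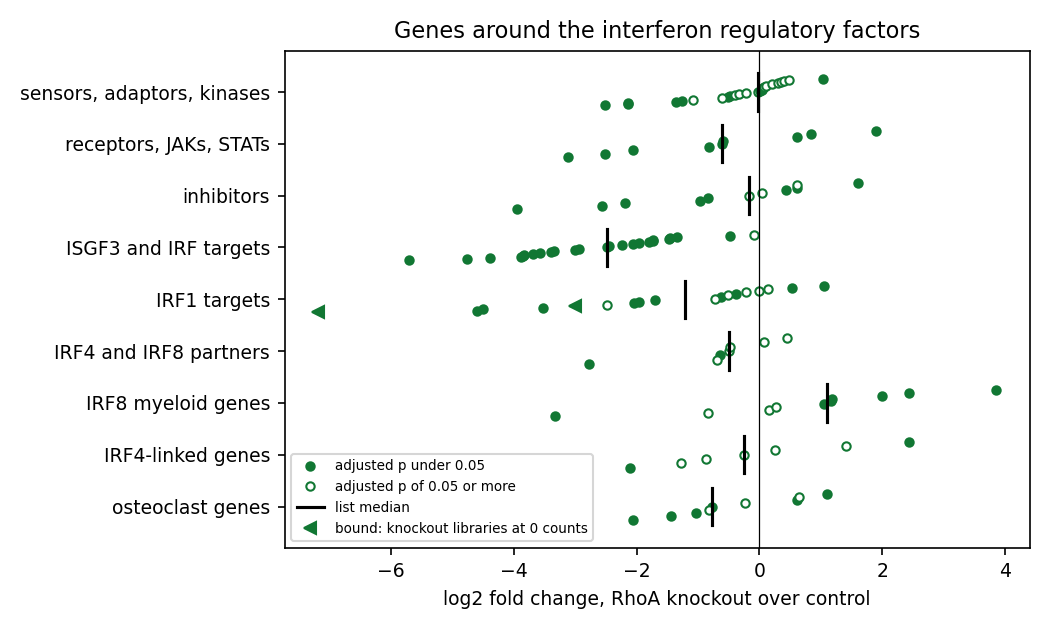
Each point is the log2 fold change of 1 gene, knockout-labelled over control, grouped by its role around the factors; filled points passed an adjusted p of 0.05, bars are list medians and triangles are bounds for Nos2 and Gbp5, which had 0 counts in the knockout-labelled libraries. The ISGF3 and IRF targets lie below 0 with a median of −2.49, and the IRF8 myeloid genes have a median of 1.11.

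Genes of the IRF8-linked monocyte and macrophage programme did not follow the direction of Irf8. Of 10 tested, 6 rose, beside 21% of all genes, and 1 fell, beside 22.3% (median 1.11). Over the alternative settings 5 to 8 rose and 1 to 2 fell. Cst3, the cystatin C gene, went from 495 ± 16.7 to 1981 ± 305 CPM (SD, n = 3; 2.00 ± 0.14 SE, edgeR adjusted p = 4.17e-07). Cx3cr1, the fractalkine receptor, went from 60, 48 and 111 counts to 1445, 1584 and 1114 (3.85 ± 0.31). Csf1r, the M-CSF receptor, changed by 1.17 ± 0.12, and Cybb, the NADPH oxidase subunit, by 1.05 ± 0.11. Klf4, a factor known to act below IRF8 in monocytes, changed by 2.43 ± 0.46 (edgeR adjusted p = 0.000991). The 1 that fell was Id2 (−3.34 ± 0.47), an inhibitor of basic helix-loop-helix factors. Leaving out 1 knockout-labelled library gave medians of 0.63, 0.64 and 0.70 over 12 tested genes. Of the 9 macrophage markers given above, 3 were higher in every knockout-labelled library, Csf1r among them, beside 27.5% of all genes tested. Another 4 were lower in every one, beside 28.3%. The part of these markers in the values of this list was not tested.

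Of 7 tested DNA-binding partners of IRF4 and IRF8, 2 fell, beside 22.3% of all genes, and none rose, beside 21% (median −0.49). By an unadjusted p of 0.05 the higher count was also 0, and DESeq2 gave 0, whereas the replicate block gave 1, Junb (0.44, edgeR adjusted p = 0.0464). Spi1, which encodes PU.1, was at 3.36 ± 0.705 and 3.54 ± 0.319 CPM (SD, n = 3; 0.08 ± 0.25 SE, edgeR adjusted p = 0.835). Ikzf1 (Ikaros) changed by −0.63 ± 0.17 (adjusted p = 0.00812), a call lost under library totals (adjusted p = 0.0774) and the length correction (0.0506). Jund had 96, 24 and 46 counts against 8, 20 and 2 (−2.78 ± 0.87, edgeR adjusted p = 0.0211), and its call was lost without control 1 (adjusted p = 0.129), knockout library 1 (0.0597), knockout library 3 (0.0508) or replicate 3 of both groups (0.0789) and under the replicate block (0.0506). Of 7 tested genes of alternative activation linked to IRF4, 1 rose, beside 21% of all genes, and 1 fell, beside 22.3%. Klf4 was the gene that rose, and Il4ra, the interleukin 4 receptor, fell (−2.10 ± 0.60, edgeR adjusted p = 0.0141). The Il4ra call was lost without knockout library 3 (adjusted p = 0.0523) and without replicate 3 of both groups (0.0924). The median of these 7 genes, −0.25, had no stable sign: it was −0.70 without knockout library 1 and 0.10 without control 1.

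Osteoclast genes, which IRF8 is known to restrain, were listed together with repressors of them, and the list went in both directions. Of 9 tested, 4 fell, beside 22.3% of all genes, and 2 rose, beside 21% (median −0.77). The 4 that fell include the repressor Bcl6 (−1.03 ± 0.35 SE, edgeR adjusted p = 0.0328), so they are not all osteoclast effectors. Atp6v0d2 was among the 2 that rose (0.62 ± 0.19, adjusted p = 0.0203). Bcl6 and Atp6v0d2 were named with values in view. The median was −0.10 without control 2 and −0.24 without knockout library 3. Mmp9, a matrix protease, changed by −2.06 ± 0.27 SE (edgeR adjusted p = 6.18e-05), and Acp5, the tartrate-resistant phosphatase, by −1.43 ± 0.34. Dcstamp, needed for cell fusion, changed by −0.77 ± 0.23 (adjusted p = 0.0157), a call lost with library totals alone (−0.58, adjusted p = 0.0887), without control 3 (0.0505) and without replicate 3 of both groups (0.0831). Ctsk, the collagen-degrading cathepsin, rose from 425, 281 and 419 counts to 1067, 1057 and 953 (1.10 ± 0.18). Nfatc1, the master regulator of osteoclasts, was at 2.35 ± 0.641 and 3.67 ± 0.122 CPM (SD, n = 3; 0.64 ± 0.27, edgeR adjusted p = 0.0742), and passed without control 1 (0.88, adjusted p = 0.0371) and with the length correction (0.98, adjusted p = 0.0113). Without control 3, 2 of the 9 were lower, as with library totals and without replicate 3 of both groups.

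The genes nearest to each member in their pattern over the 6 libraries were found as the root mean square distance of centred log2 CPM, among 3713 genes. Irf7 was closest to Spink5 (0.12) and Kpna4 (0.138), and 8 genes lay within 0.2 of it. Spink5, a protease inhibitor gene, was at 151 and 21.6 CPM on average, and Kpna4, an importin alpha gene, at 15.6 and 2.16 CPM. Irf8 was closest to Phf11b (0.0852) and Phf11d (0.091), which share near-identical sequence with another copy, and 46 genes lay within 0.2. Irf9 was closest to Kpna3 (0.0432), another importin alpha gene, and Tpp2 (0.0435), with 363 genes within 0.2. Irf3 was closest to Cox7a2l (0.0825) and Cmtm3 (0.0871), and Irf5 to Josd2 (0.0807) and Atp5d (0.0838), with 220 and 310 genes within 0.2. Irf1 was closest to Trmt6 (0.146) and Lrrc75a (0.149), and Irf2 to Rps13 (0.1601) and Cept1 (0.161). Cept1 shares 771 bases of near-identical sequence with Dennd2d, so its count is uncertain.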

How the data were processed

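Per the labels' protocols, RNA of the 6 RAW264.7 samples was taken with Trizol and sequenced after Illumina library preparation. The authors deposited raw counts for each gene in 1 table, and the build was GRCm38 per the submitters' processing notes. The sources used here do not name the aligner, the counter or its strand setting. Multiples of 4 were over-represented among low counts, 1.32 to 1.45-fold against adjacent values. Groups and columns were matched by name, and 0 columns were left out.

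Genes were filtered with edgeR's filterByExpr (edgeR 4.0.16, R 4.3.3), scaled by TMM and tested with the quasi-likelihood F test over 12930 genes, with Benjamini-Hochberg adjustment and a threshold of 0.05. The common biological coefficient of variation was 0.32. The test was checked on simulated counts. A count of 0 was read against a floor of 3 counts (0.0336 to 0.0513 CPM), and such floors cover counting error only. Near-identical copies were searched with blastn 2.17.0 (at least 95% identity over 200 bases). None was found for a member. Motifs were matched in RefSeq windows.

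The members and gene lists were chosen with earlier results of these data known. Named genes are all members, Rhoa, up to 4 called genes per list with the smallest p (otherwise the 2 most counted), the 2 nearest genes per member, and genes in the ratios. Some genes this rule names are not reported here. Others are marked as chosen with values in view, or are the few exceptions to a count.

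Alternatives were DESeq2 1.42.0, other scalings and filters, each library left out, a replicate block, a length correction and counts divided by 4.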

Additional observations from a re-analysis of the deposited data

How the results depend on the processing

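Over 16 alternatives, Irf7 and Irf8 stayed lower and past the threshold in all 16, and Irf9 in 15. Scaling by library totals alone moved the median of all genes from −0.03 to 0.15 (log2) and the higher share of calls from 48.5% to 59.8%. It gave Irf2 0.068, Irf5 0.59 (adjusted p = 0.0198), Irf9 −0.37 (adjusted p = 0.156) Irf2bp2 0.051, Ifi35 0.087, B2m 0.15 and Rps13 0.17, with 2 members lower and 2 higher. The length correction gave Irf2 0.22, Irf3 0.39, Lrrc75a −0.099, Myd88 −0.022, Unc93b1 −0.11, Irf2bp1 −0.017, Spi1 −0.14 and 0 members higher. Counts divided by 4 gave Irf5 0.42 (adjusted p = 0.0487) and 2 members higher. With DESeq2 size factors and with DESeq2's Wald test, Rps13 was 0.010 and B2m 0.00898, both near 0 in the analysis reported. Leaving out libraries gave ranges of −0.020 to 0.35 for Irf1, −0.32 to 0.20 for Irf2, 0.35 to 0.74 for Irf3, 0.29 to 0.54 for Irf5, −0.028 to 0.41 for Lrrc75a, −0.025 to 0.28 for Mavs, −0.030 to 0.10 for Unc93b1, −0.17 to 0.55 for Irf2bp1, −0.27 to 0.22 for Irf2bp2, −0.15 to 0.075 for B2m, −0.14 to 0.24 for Spi1 and −0.16 to 0.093 for Rps13, and 0 to 2 members higher. The cause of these shifts was not tested.

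Over all tested genes, same-numbered libraries did not deviate together (correlations −0.00595, 0.0277 and 0.0137), and not every sample correlated best with its own number. The main fit did not use the numbers as pairs. Correlations over all genes cannot exclude a batch shared by a number that acts on some genes. With the replicate block, 2738 genes were lower and 2634 higher, against 2879 and 2713 without it. Under the block Irf3 was 0.48 (adjusted p = 0.0541), Rps13 was 0.00224 and 0 members were higher; the Jund and Psmb9 calls were lost and Junb was gained, as given with those genes.

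Among the lists, the receptor and STAT genes lower ranged from 3 to 6 (3 with the length correction), the osteoclast genes lower from 2 to 4 (2 with library totals, without control 3 or without replicate 3), and the sensor and kinase genes higher from 1 to 3 (3 with library totals or the length correction). The ISGF3 and IRF targets lower ranged from 23 to 24. The inhibitors higher ranged from 1 (without replicate 3 of both groups) to 3, the IRF1 targets higher from 1 to 2, the IRF8 myeloid list's median from 0.63 to 1.29 and the IRF4-linked median from −0.70 to 0.26. The interferon genes called lower ranged from 0 to 1 over the 6 alternatives in which any was tested. The 1 was Ifnb1, called only where control 3, its control at 0 counts, was left out. Depth limits these genes and Irf4, whose counts are at or near 0.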
